A study of Mus musculus with 16 samples.

Results

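Cdx1, Cdx2, Cdx4, T (Brachyury, also named Tbxt), Wnt3a, Fgf8 and Evx1, genes that pattern the posterior end of the embryo, were followed in mouse embryonic stem cells that received retinoic acid (RA) with or without a knockdown of Sirt1, which encodes a deacetylase that uses NAD. All probes that carried these gene names were taken, which gave 8 probes for 7 genes, of 41174 probes and 28786 genes on the array. Of the 7 genes, 6 passed the filter on dim probes and entered the tests, among 18282 genes tested. Cdx4 and a second Fgf8 probe did not pass it. In the RefSeq annotation of GRCm38.p6 the genes span chr11:59248036-59290751 (Wnt3a), chr19:45736491-45742941 (Fgf8), chr17:8434423-8442496 (T), chr6:52313498-52318389 (Evx1), chr18:61018862-61036199 (Cdx1), chr5:147300900-147307249 (Cdx2) and chrX:103321398-103330224 (Cdx4). The position of each probe within exons or untranslated regions was not analysed here.

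The cells were E14, an embryonic stem cell line, in a stem cell medium with serum and what the labels call leukocyte inhibitory factor, and every group carried a stable lentiviral short hairpin RNA. The groups were sh-SIRT1 cells given 20 nM RA for 2 days (sh-SIRT1 RA, n = 6 arrays), sh-Control cells given the same RA (sh-Control RA, n = 4), sh-SIRT1 cells given ethanol as vehicle (sh-SIRT1 vehicle, n = 3) and sh-Control cells given ethanol (sh-Control vehicle, n = 3). The study asked whether loss of Sirt1 alters the differentiation that RA induces. The effect of the hairpin cannot be told apart from the history of the line that carries it. The study's design text speaks of 3 pairs of cells with duplicates and does not say which RA arrays were duplicates, so the p-values below rest on array-to-array spread, part of which may be technical.

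In the gastrulating embryo, cells leave the pluripotent epiblast through the primitive streak. Wnt3a and Fgf8 are secreted signals of the posterior streak and tail bud, T is the T-box transcription factor that marks streak and early mesoderm, and Evx1 is a homeobox factor of the posterior streak. The Cdx genes encode caudal-type homeobox factors that respond to Wnt, FGF and RA signals and act on the Hox genes of the trunk; Cdx2 is also a factor of the trophectoderm, the outer layer of the early embryo that forms the placenta.

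The upstream regions of 5 of the 7 genes were in the RefSeq promoter table (build GRCm38.p6), and they are shown so that members that rose, fell or stayed at background can be read side by side. Each run below holds the 250 bases before the annotated transcript start, 5′ to 3′ on the strand of the gene. They lie at chr11:59290752-59291001 for Wnt3a (minus strand), chr17:8434173-8434422 for T (plus strand), chr6:52313248-52313497 for Evx1 (plus strand), chr5:147307250-147307499 for Cdx2 (minus strand) and chrX:103321148-103321397 for Cdx4 (plus strand). Capitals mark matches on either strand to the octamer ATGCAAAT bound by POU factors, the TCF/LEF core CTTTG, the Cdx site TTTATG, the T-box half-site AGGTGT and the nuclear receptor half-site, searched as AGGTCA and also as GGGTCA and also as AGTTCA and also as GGTTCA.
Wnt3a: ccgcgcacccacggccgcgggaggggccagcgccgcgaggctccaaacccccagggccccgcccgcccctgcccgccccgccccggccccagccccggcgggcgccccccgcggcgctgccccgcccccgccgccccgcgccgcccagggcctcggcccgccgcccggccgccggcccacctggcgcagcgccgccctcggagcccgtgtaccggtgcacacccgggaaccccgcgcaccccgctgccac
T: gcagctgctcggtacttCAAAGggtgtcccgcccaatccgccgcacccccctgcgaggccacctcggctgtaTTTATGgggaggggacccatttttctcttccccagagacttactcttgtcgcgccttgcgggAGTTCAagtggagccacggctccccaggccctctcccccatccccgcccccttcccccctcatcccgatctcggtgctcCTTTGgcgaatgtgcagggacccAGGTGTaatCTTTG
Evx1: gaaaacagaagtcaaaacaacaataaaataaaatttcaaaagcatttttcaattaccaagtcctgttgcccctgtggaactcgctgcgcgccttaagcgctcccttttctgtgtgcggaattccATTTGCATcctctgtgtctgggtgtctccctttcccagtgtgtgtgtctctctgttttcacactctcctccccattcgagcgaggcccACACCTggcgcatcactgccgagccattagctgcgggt
Cdx2: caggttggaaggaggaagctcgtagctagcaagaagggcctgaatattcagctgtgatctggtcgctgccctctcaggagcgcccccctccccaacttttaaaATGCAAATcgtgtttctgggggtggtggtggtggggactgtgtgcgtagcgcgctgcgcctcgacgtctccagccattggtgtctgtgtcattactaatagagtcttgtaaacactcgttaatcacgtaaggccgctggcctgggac
Cdx4: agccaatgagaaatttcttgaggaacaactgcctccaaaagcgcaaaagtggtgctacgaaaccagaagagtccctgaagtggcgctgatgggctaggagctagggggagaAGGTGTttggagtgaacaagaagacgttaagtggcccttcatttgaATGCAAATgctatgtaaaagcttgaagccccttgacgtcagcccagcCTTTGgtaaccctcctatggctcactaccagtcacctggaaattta
The motifs were chosen with these sequences in view, and a match is a description of the letters only. The octamer ended 140 bases before the start of Cdx2 and 86 bases before that of Cdx4, and on the opposite strand it ended 119 bases before the start of Evx1. It occurred in 1.6% of the 32851 upstream regions of this length. The T region held 3 TCF/LEF cores, a letter string found in 48.6% of all regions, as well as 1 Cdx site (10.8% of all regions), 1 T-box half-site (11.8%) and 1 AGTTCA (11.8%). The Evx1 and Cdx4 regions also held a T-box half-site each, and the Cdx4 region a TCF/LEF core. No 2 matches overlapped. The Wnt3a region held none of these strings. It was 87.6% G or C with 41 CG pairs, against 55.2% and 13 pairs for Cdx2, 48.4% and 5 for Cdx4, 62.8% and 14 for T, 49.6% and 10 for Evx1, and medians of 52.4% and 6 over all regions. The octamer stood upstream of genes that rose (Cdx2), fell (Evx1) and were never measured above background (Cdx4) in the results that follow.

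Levels are log2 of the processed intensity minus log2 of the 75th percentile of that array, so 0 is the brightness of a probe at that percentile, and every level below is on this scale. On the arrays 60.3 to 68.6% of spots were well above background. Sirt1 itself was lower in every sh-SIRT1 array: its brighter probe stood at 0.92 to 1.59 in sh-SIRT1 RA, against 3.28 to 3.48 in sh-Control RA, and at 1.83 to 1.89 in sh-SIRT1 vehicle, against 3.53 to 3.85 in sh-Control vehicle. The transcript of the Y-linked gene Ddx3y was not well above background on sh-Control RA arrays 2, 3 and 4 (-6.91, -8.01 and -8.12), while array 1 of that group stood at 0.23 and the other 12 arrays between 0.33 and 1.60. Calls or differences of members and counts or medians of lists that rest on the sh-Control RA group are therefore given also with array 1 alone as that group. In that fit the spread of this group is assumed to equal that of the other groups. For the lists this was added after seeing the data. Sh-Control RA arrays 3 and 4 were the most alike pair within any group, their log2 differences having an SD of 0.214 across genes, where other pairs within groups had 0.269 to 0.736. The arrays lay on 4 slides, each with arrays of 3 or 4 groups.

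**Figure D1:**
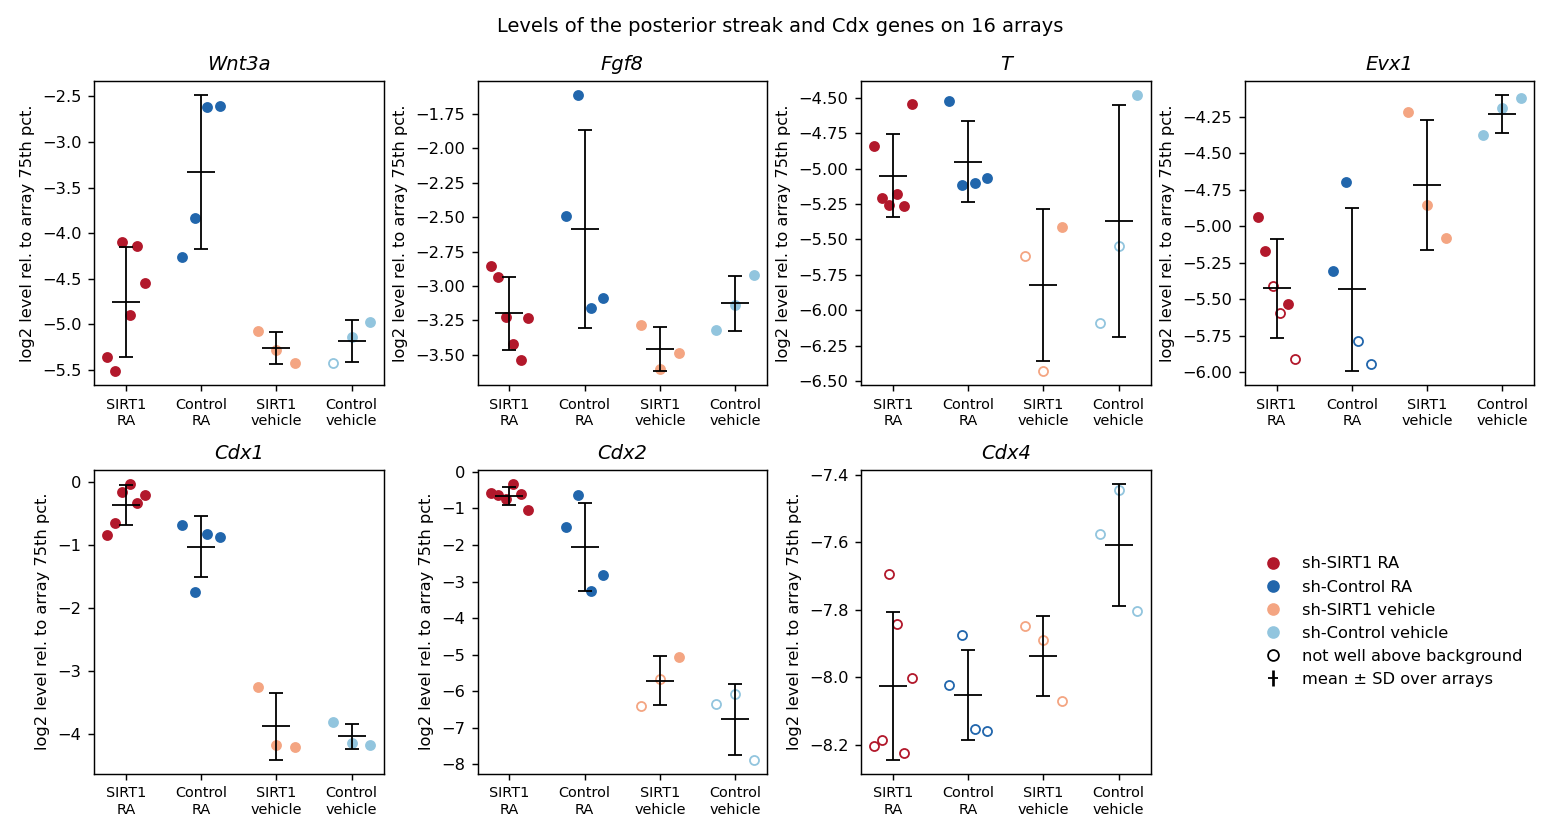
Level of each gene (vertical axis, log2 relative to the 75th percentile of the array; the range differs between panels) on the 6 sh-SIRT1 RA, 4 sh-Control RA, 3 sh-SIRT1 vehicle and 3 sh-Control vehicle arrays. Points are arrays, open where the probe was not well above background, and bars are the mean ± SD; Cdx1 and Cdx2 stood higher on every RA array than on any vehicle array, and all Cdx4 points are open.

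Under RA the Cdx genes had the largest differences of the 6 genes tested. Cdx1 rose 11.4-fold in sh-SIRT1 cells and 8.09-fold in sh-Control cells, and Cdx2, which was at or near background in vehicle, rose in both lines. In sh-Control cells the mean of Cdx2 rose by a lower bound of 10.2-fold, which leaves out the spread between arrays (SD 1.20 in sh-Control RA). Evx1 fell in both lines. Wnt3a rose 3.61-fold in sh-Control cells, while its higher mean in sh-SIRT1 cells did not pass the test. T rose by a small amount in sh-SIRT1 cells, in a call that most other analyses did not keep, and no difference of Fgf8 passed. In all, limma with Benjamini-Hochberg adjustment over all genes called 3 members higher and 1 lower of 6 tested in sh-SIRT1 cells, where 23% of all genes were called higher and 35.3% lower. It called 3 higher and 1 lower in sh-Control cells, where 19.7% of all genes were called higher and 27.2% lower. Cdx2 and T passed the filter on dim probes only through the RA groups, and Evx1 only through the vehicle groups. Each thus entered through the groups where it was higher, so the counts are not independent of the filter. The median difference of all genes was -0.13 in sh-SIRT1 cells and -0.14 in sh-Control cells. In these bulk samples, fewer or more cells of a type and less or more RNA per cell cannot be told apart.

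Wnt3a, the Wnt ligand of the tail bud, was dim in vehicle. In sh-SIRT1 RA its level was -5.51 at the lowest, -4.73 at the median and -4.10 at the highest, against -5.08, -5.28 and -5.43 in sh-SIRT1 vehicle. These groups overlapped, and the difference of 0.50 ± 0.39 (SE; adjusted p = 0.282, limma) did not pass. In sh-Control RA it was -4.26, -3.83, -2.62 and -2.60, against -5.43, -5.14 and -4.98 in sh-Control vehicle, where 2 of 3 arrays were well above background. Each sh-Control RA array stood above each vehicle array, with arrays 3 and 4 highest, and the difference was 1.85 ± 0.42 (adjusted p = 0.00250, limma). It was 2.81 within slide 1 and 0.72 within slide 4, the only slides with both groups. With array 1 alone as the sh-Control RA group it was 0.92 (adjusted p = 0.168, limma) and no longer passed, and after another background correction (normexp, which pulls dim signals together) it shrank to 0.69 and still passed (adjusted p = 0.00556, limma).

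Fgf8, the streak ligand that sustains mesoderm migration, was carried by a probe spotted 10 times on each array, whose spots differed by a median SD of 0.0912 within an array. Its level in sh-SIRT1 RA was -3.54 at the lowest, -3.23 at the median and -2.85 at the highest, against -3.28, -3.60 and -3.49 in sh-SIRT1 vehicle, a difference of 0.26 ± 0.27 (adjusted p = 0.435, limma). In sh-Control RA it was -2.49, -1.61, -3.16 and -3.09, against -3.32, -3.14 and -2.92 in sh-Control vehicle, a difference of 0.54 ± 0.30 (adjusted p = 0.148, limma), or 0.64 (adjusted p = 0.0700, limma) with array 1 alone as the sh-Control RA group. The groups overlapped in both lines, and the 2 arrays that stood out were sh-Control RA arrays 1 and 2. The second Fgf8 probe was not well above background on any of the 16 arrays and gives no fold.

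T lay close to background. Its probe was also spotted 10 times, and its spots differed by a median SD of 0.315 within an array. In sh-SIRT1 RA, where all 6 arrays were well above background, it stood at -5.26 at the lowest, -5.20 at the median and -4.55 at the highest, against -5.62, -6.43 and -5.41 in sh-SIRT1 vehicle, where 1 of 3 arrays was. The groups did not overlap, and the difference of 0.77 ± 0.31 (adjusted p = 0.0440, limma) passed by a small margin. It passed in 8 of 21 other analyses with a test, was 0.09 after the normexp correction (adjusted p = 0.319, limma), and was 1.25, 0.36 and 0.18 within slides 1, 2 and 3. Without sh-SIRT1 vehicle array 2 it was 0.46 (adjusted p = 0.255, limma). In sh-Control RA it stood at -4.52, -5.11, -5.10 and -5.07, against -6.09, -5.54 and -4.48 in sh-Control vehicle. These groups overlapped through vehicle array 3, and the difference of 0.42 ± 0.33 did not pass (adjusted p = 0.313, limma), though it did without that array (0.87, adjusted p = 0.0305, limma). With array 1 alone as the sh-Control RA group it was 0.85. On slide 4, where T stood high, sh-Control RA array 1 was at -4.52 and vehicle array 3 at -4.48. On slide 1 RA array 3 was at -5.10 and vehicle array 1 at -6.09. Without vehicle array 3, slide 4 holds RA arrays only. The highest sh-SIRT1 RA arrays (-4.55 and -4.84) also lay on slide 4, and no sh-SIRT1 vehicle array did.

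Evx1 was the member that fell. In sh-SIRT1 RA its level was -5.91 at the lowest, -5.47 at the median and -4.94 at the highest, with 3 of 6 arrays well above background, against -4.22, -4.86 and -5.08 in sh-SIRT1 vehicle. The highest RA array stood above the lowest vehicle array, and the difference was -0.71 ± 0.27 (adjusted p = 0.0348, limma). That call was kept in 13 of 21 other analyses, and the difference was -0.46 without sh-SIRT1 vehicle array 1 (adjusted p = 0.206, limma), -0.22 after the normexp correction (adjusted p = 0.0237, limma) and -0.74, -1.32 and -0.21 within slides 1, 2 and 3. In sh-Control RA it was -5.31, -4.70, -5.79 and -5.94, with 2 of 4 arrays well above background, against -4.37, -4.19 and -4.13 in sh-Control vehicle. The sh-Control groups did not overlap, and the difference of -1.20 ± 0.29 (adjusted p = 0.00385, limma) passed in all 20 other analyses that had a value, array 1 alone included. It was -1.41 within slide 1 and -1.18 within slide 4, and -0.40 after the normexp correction.

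Cdx1, a direct target of RA signalling in the mouse embryo, was well above background on all 16 arrays. In sh-SIRT1 RA its level was -0.85 at the lowest, -0.27 at the median and -0.03 at the highest, against -3.27, -4.18 and -4.21 in sh-SIRT1 vehicle. In sh-Control RA it was -0.68, -1.74, -0.83 and -0.87, against -3.81, -4.15 and -4.18 in sh-Control vehicle. RA and vehicle arrays were far apart in both lines. The difference was 3.51 ± 0.26 in sh-SIRT1 cells (adjusted p = 1.18e-07, limma) and 3.02 ± 0.28 in sh-Control cells (adjusted p = 1.80e-06, limma). Within slides it ranged from 2.93 to 4.15 in sh-SIRT1 cells and from 2.99 to 3.49 in sh-Control cells, and it was 2.32 in sh-SIRT1 cells and 1.91 in sh-Control cells after the normexp correction, with both calls kept. With array 1 alone as the sh-Control RA group it was 3.37 in sh-Control cells.

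Cdx2, the caudal factor shared by posterior embryo and trophectoderm, was dim or at background in vehicle and well above background on every RA array. In sh-SIRT1 RA it was -1.06 at the lowest, -0.62 at the median and -0.32 at the highest, against -6.39, -5.66 and -5.07 in sh-SIRT1 vehicle, where 1 of 3 arrays was well above background. In sh-Control RA it was -1.50, -0.64, -3.26 and -2.81, against -6.35, -6.06 and -7.87 in sh-Control vehicle, where no array was. The sh-SIRT1 RA arrays were tight, with an SD of 0.24, while the sh-Control RA arrays had an SD of 1.20 and split into arrays 1 and 2 above arrays 3 and 4. The fitted difference was 5.05 ± 0.51 in sh-SIRT1 cells (33.1-fold; adjusted p = 2.06e-06, limma) and 4.71 ± 0.56 in sh-Control cells (26.1-fold), and both rest on vehicle signals mostly at background, so their sizes are uncertain. The 10.2-fold bound in sh-Control cells was set against the dimmest signal well above background on each vehicle array (fitted adjusted p = 1.51e-05, limma). Both calls passed in every other analysis that had a value, and with array 1 alone as the sh-Control RA group the fitted difference was 5.26 in sh-Control cells. After the normexp correction the differences were 2.65 in sh-SIRT1 cells and 1.80 in sh-Control cells, and within slides the difference was 4.38 to 5.79 in sh-SIRT1 cells, against 3.09 and 6.38 in sh-Control cells.

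Cdx4, the X-linked caudal gene, stood between -8.22 and -7.44 and was not well above background on any of the 16 arrays, so no fold can be given. Of the 3 Cdx genes, Cdx1 and Cdx2 were thus higher under RA and Cdx4 was not detectable at the signal these arrays reach.

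**Figure D2:**
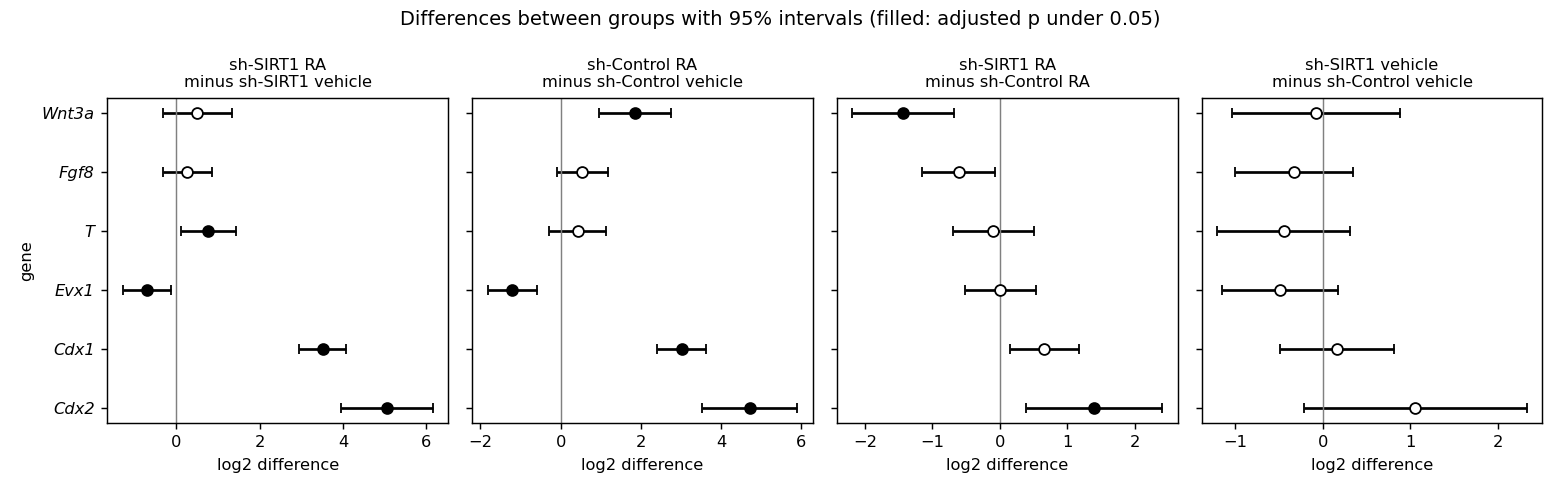
Difference (horizontal axis, log2) of each tested gene in 4 comparisons, with its 95% interval from the limma fit; filled points passed an adjusted p of 0.05. Cdx1 and Cdx2 lie far right of 0 in both RA panels, Wnt3a lies left of 0 between the RA groups, and no gene passed in vehicle; the Cdx2 point of sh-Control cells is the fitted value, since no vehicle array of that group was well above background.

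Between the lines under RA, Wnt3a was lower in sh-SIRT1 cells, and Cdx2 was called higher by a margin that most other analyses did not keep. limma called 1 member higher and 1 lower of 6, where 8.59% of all genes were called higher and 11.7% lower. The values of Wnt3a were -5.36, -5.51, -4.10, -4.90, -4.14 and -4.55 on sh-SIRT1 RA arrays 1 to 6, against -4.26, -3.83, -2.62 and -2.60 on sh-Control RA arrays 1 to 4. The groups overlapped slightly, through sh-SIRT1 RA arrays 3 and 5 against sh-Control RA array 1, and the difference was -1.43 ± 0.35 (adjusted p = 0.0115, limma), a 2.69-fold lower signal. It was negative in 4 of 4 pairs of arrays with the same number (-1.10, -1.68, -1.47 and -2.30), and it was -2.28, -0.92 and -0.69 within slides 1, 2 and 4. It passed in 23 of 24 other analyses. The exception was array 1 alone as the sh-Control RA group, with a difference of -0.50. A group of 1 array gives little precision, so that fit cannot show on which arrays the call rests. Sh-Control RA arrays 2 to 4, those without Ddx3y signal, stood higher than array 1, and a link to Ddx3y was not tested. The normexp correction gave -0.59 (adjusted p = 0.0101, limma).

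Cdx2 was -0.58, -0.64, -0.74, -0.32, -0.60 and -1.06 on sh-SIRT1 RA arrays 1 to 6, against -1.50, -0.64, -3.26 and -2.81 on sh-Control RA arrays 1 to 4. The groups overlapped through sh-Control RA array 2. The signal was 2.63-fold higher in sh-SIRT1 RA (95% interval of the log2 difference 0.39 to 2.40), which passed by the smallest margin (adjusted p = 0.0496, limma) and in 7 of 24 other analyses. The same-number pairs differed by 0.91, 0.00, 2.52 and 2.49, and the values within slides 1, 2 and 4 were 2.94, 1.13 and 0.68. With the array number as a replicate block within treatment it was 1.48 (adjusted p = 0.0966, limma), and with array 1 alone as the sh-Control RA group it was 0.84 (adjusted p = 0.373, limma). Without sh-Control RA array 3 it was 0.99 (adjusted p = 0.175, limma), and without array 4 it was 1.14 (adjusted p = 0.153, limma). Leaving out any one sh-SIRT1 RA array also ended the call, at adjusted p of 0.0621 to 0.0914 (limma), while the normexp correction kept it (1.06, adjusted p = 0.0132, limma).

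The other members did not pass between the RA groups. Cdx1 was 0.66 ± 0.24 higher in sh-SIRT1 RA (adjusted p = 0.0655, limma; 3 of 4 same-number pairs), with a 95% interval from 0.15 to 1.17. It passed in 4 of 25 other analyses, among them the normexp correction (0.56, adjusted p = 0.0369, limma), and was 0.31 with array 1 alone as the sh-Control RA group. Fgf8 differed by -0.61 ± 0.25 (adjusted p = 0.103, limma; lower in 4 of 4 pairs), and without sh-Control RA array 2 the difference was -0.28, while with array 1 alone it was -0.71. T differed by -0.10 (95% interval -0.70 to 0.50) and Evx1 by 0.01 (95% interval -0.52 to 0.53). In these 4 genes the groups overlapped.

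**Figure D3:**
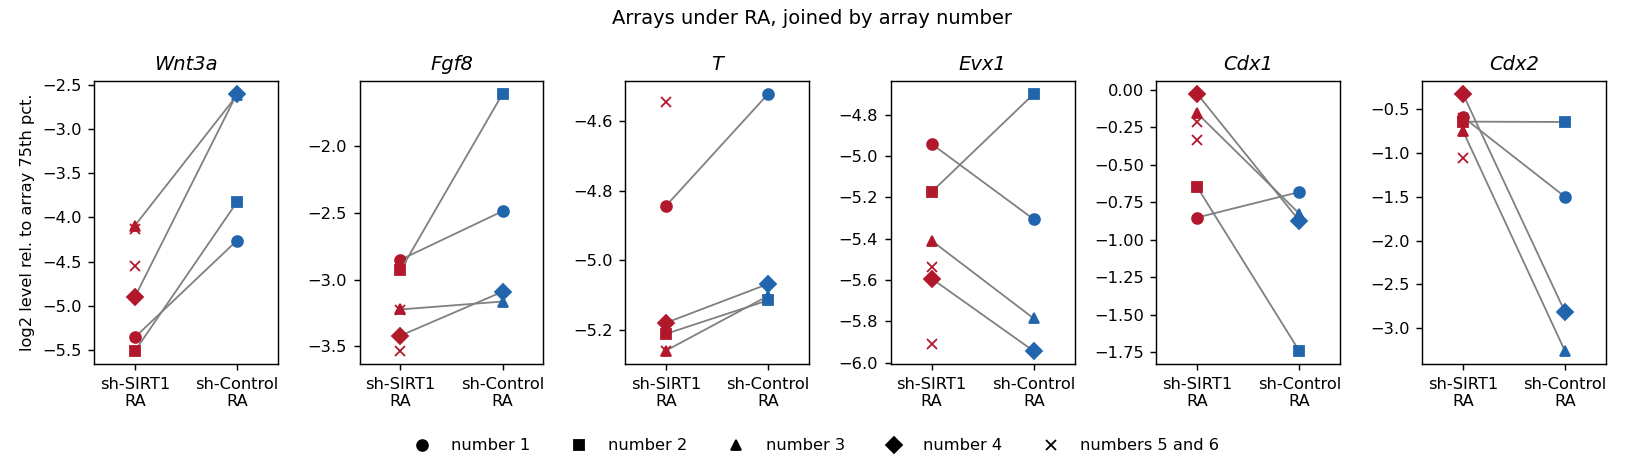
Levels (vertical axis, log2 relative to the 75th percentile of the array; the range differs between panels) of the 6 tested genes on the RA arrays, sh-SIRT1 left and sh-Control right, with lines joining arrays of the same number. All 4 Wnt3a lines and all 4 Fgf8 lines rise towards sh-Control, the Wnt3a points of sh-Control arrays 3 and 4 lie on top of each other, and the Cdx2 lines of numbers 3 and 4 fall by about 2.5 units.

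In vehicle limma called 0 of 6 members, and 0 had an unadjusted p under 0.05, where 4.41% of all genes were called higher and 4.21% lower. The Wnt3a difference was -0.08 (95% interval -1.04 to 0.88), that of Cdx1 was 0.16 (-0.48 to 0.81) and that of Cdx2, with 1 sh-SIRT1 and 0 sh-Control arrays well above background, was 1.06 (-0.22 to 2.33). T, Fgf8 and Evx1 had lower means in sh-SIRT1 vehicle by differences of -0.45, -0.33 and -0.49, each with a 95% interval that held 0.

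The RA response itself was compared between the lines by an interaction term. limma called 0 of 6 members, with 1 (Wnt3a) at an unadjusted p under 0.05, where 1.71% of all genes were called higher and 1.88% lower. The RA effect on Wnt3a was smaller in sh-SIRT1 cells by a difference of -1.35 ± 0.57 (adjusted p = 0.198, limma). With the array number as a replicate block within treatment it was -1.56 (adjusted p = 0.0331, limma), and with array 1 alone as the sh-Control RA group it was -0.42 (adjusted p = 0.773, limma). For the other members the difference of RA effects was 0.50 for Cdx1, 0.34 for Cdx2 (whose sh-Control vehicle arrays were all at background, so that this size is uncertain), 0.35 for T, -0.28 for Fgf8 and 0.50 for Evx1, with adjusted p of 0.507 to 0.848 (limma). The Wnt3a difference of responses passed in 2 of 29 other analyses, that one and the fit with array weights, and not with the replicate block over all groups (adjusted p = 0.138, limma) or with slide as a fixed (0.509) or random block (0.202). That Wnt3a passed in sh-Control cells and not in sh-SIRT1 cells therefore does not show that the responses differed. The comparisons within a line share no arrays with each other, while each RA group also enters the comparison between the lines.

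Over the 16 arrays, Cdx1 and Cdx2 moved together (Pearson r = 0.91, across arrays of 4 groups that differ in treatment), and Cdx1 and Evx1 moved oppositely (r = -0.79). Over the 10 RA arrays alone, Cdx2 and Wnt3a had r = -0.84 and Cdx1 and Fgf8 had r = -0.86. These values include the differences between the lines, and the pairs were picked after their values were seen. Among genes with a symbol, those most like Cdx1 over the 16 arrays were Ttc39c (r = 0.99; 0.95 over the 10 RA arrays), Tbx18 (0.99; 0.86) and Rftn1 (0.99; 0.90). Those most like Cdx2 were Npr1 (0.98; 0.93), Afap1l1 (0.98; 0.95) and Slc51a (0.98; 0.94). For Wnt3a they were Zcchc12 (0.95; 1.00), Atg14 (0.95; 0.96) and Htr5b (0.93; 0.94), for Fgf8 Gal (0.98; 0.98), BC004004 (0.92; 0.96) and Pxmp2 (0.92; 0.93), for Evx1 Mov10 (0.97; 0.92), Hgh1 (0.94; 0.92) and Cdh13 (0.94; 0.91), and for T Spata20 (0.91; 0.81), Slc4a1 (0.88; 0.77) and Ptprm (0.88; 0.52). T had the lowest of these values. Over the 6 vehicle arrays alone, r of the named genes with their member ranged from -0.03 (Atg14) to 0.98 (Gal). All were picked as the highest among 12059 genes, and r over 16 arrays includes the differences between the groups.

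The other genes of the posterior streak and presomitic mesoderm rose more often than they fell under RA. Of 27 listed, 20 were tested, and 11 rose and 3 fell in sh-SIRT1 cells (median 1.16), against 8 and 2 in sh-Control cells (median 0.68). Among all genes 23% rose and 35.3% fell in sh-SIRT1 cells, and 19.7% and 27.2% in sh-Control cells. All 20 were well above background on every RA array, against 16 in sh-SIRT1 vehicle and 15 in sh-Control vehicle. The filter thus admitted some of them through RA, so the excess of rises is partly set by it. Cyp26a1, the enzyme that degrades RA and a tail bud gene, rose at least 70.6-fold in sh-SIRT1 cells and at least 64.7-fold in sh-Control cells. Gsc, a homeobox factor of the anterior streak, rose by 3.81 ± 0.77 in sh-Control cells (adjusted p = 0.00118, limma) and at least 7.54-fold in sh-SIRT1 cells. Sp8, a zinc finger factor of the tail bud, rose at least 5.96-fold in sh-SIRT1 cells and was also called higher in sh-Control cells, and Fgf3, another streak ligand, at least 2.57-fold in sh-SIRT1 cells. Eomes, the T-box factor of streak and trophectoderm, rose by 2.47 ± 0.16 in sh-Control cells (adjusted p = 5.33e-08, limma). Between the RA groups 8.59% of all genes were called higher in sh-SIRT1 cells and 11.7% lower. Of the 20 streak genes, 5 were higher and 2 lower in sh-SIRT1 RA (median 0.26, against -0.04 over all genes). Sp8 was 1.71, Lhx1 0.94 and Gbx2 0.89 higher, and Aldh1a2, which makes RA, changed by -0.96. With array 1 alone as the sh-Control RA group these counts were 2 and 2, and RA against vehicle in sh-Control cells gave 8 higher and 2 lower.

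Receptors and targets of the same signals are given by their counts, beside the 23% higher and 35.3% lower of all genes in sh-SIRT1 cells and 19.7% and 27.2% in sh-Control cells, and the lists were not tested against each other. Of 16 FGF and Wnt receptors, 10 rose and 3 fell in sh-SIRT1 cells under RA (median 0.73), against 7 and 2 in sh-Control cells (median 0.50). Fzd1, a Wnt receptor, rose by 2.58 ± 0.30 in sh-SIRT1 cells and by 2.65 ± 0.32 in sh-Control cells. Between the RA groups 3 receptors were higher and 1 lower, where 8.59% of all genes were higher in sh-SIRT1 cells and 11.7% lower. Fgfr1 was 1.25 ± 0.10 higher in sh-SIRT1 RA, and its groups did not overlap. Fgfr1 was also the receptor whose RA effect differed between the lines (0.96 ± 0.15, adjusted p = 0.00799, limma). For the difference of RA effects 1.71% of all genes were called higher and 1.88% lower. Of 11 tested Wnt target and feedback genes, 2 rose and 6 fell in sh-SIRT1 cells (median -0.52), against 3 and 3 in sh-Control cells (median -0.11). Dkk1, a secreted Wnt inhibitor, rose by 5.37 ± 0.36 in sh-SIRT1 cells and by 4.25 ± 0.39 in sh-Control cells, while Lef1, a transcription factor of the pathway, changed by -1.51 ± 0.32 in sh-SIRT1 cells and by -3.23 ± 0.35 in sh-Control cells. Of 11 FGF target and feedback genes none rose, also at an unadjusted p under 0.05, with 5 lower in sh-SIRT1 cells (median -0.88) and 6 lower in sh-Control cells (median -0.68). Egr1, an immediate early gene, had the largest of these changes, -3.32 ± 0.43 in sh-SIRT1 cells and -3.91 ± 0.46 in sh-Control cells. Between the RA groups 1 Wnt target (Ccnd1, 0.91) was higher and 1 (Tcf7, -0.49) lower, and 1 FGF target (Dusp6, 0.95) was higher. With array 1 alone as the sh-Control RA group, RA against vehicle gave 8 receptors higher and 1 lower, 3 Wnt targets higher and 4 lower, and 4 FGF targets lower, with a median of the FGF targets of -0.01. In that fit sh-SIRT1 RA against sh-Control RA gave 3 receptors higher, 2 Wnt targets higher and 1 lower, and 1 FGF target lower.

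Hox genes of groups 5 to 9, trunk genes that Cdx factors act on in the mouse embryo, rose with RA in most members. Of 15 listed, 13 were tested. Of these, 12 rose in sh-SIRT1 cells (median 4.30) and 11 in sh-Control cells (median 3.58), and none fell, also at an unadjusted p under 0.05. Among all genes 23% rose in sh-SIRT1 cells and 19.7% in sh-Control cells. Hoxc9 rose at least 185-fold in sh-SIRT1 cells and at least 13.9-fold in sh-Control cells, and Hoxb5 rose at least 63.4-fold in sh-SIRT1 cells and at least 10.8-fold in sh-Control cells. With both lines under RA, 12 of 13 were higher in sh-SIRT1 cells and none lower (median 1.72), where 8.59% of all genes were higher and 11.7% lower. Hoxc9 was 3.45 ± 0.65 and Hoxa5 2.34 ± 0.40 higher. All 13 were well above background on every sh-SIRT1 RA array, against 10 on every sh-Control RA array and 5 in each vehicle group. The filter could thus admit a gene through the group where it was high, so these counts may be partly set by the filter. The mean level of the 13 genes was -1.14, -0.95, -1.07, -0.85, -1.06 and -0.83 on sh-SIRT1 RA arrays 1 to 6, against -2.06, -1.92, -3.43 and -3.54 on sh-Control RA arrays 1 to 4. All sh-SIRT1 RA arrays stood higher, and arrays 3 and 4 of sh-Control RA, the most alike pair, stood lowest. With array 1 alone as the sh-Control RA group 6 of 13 were higher and none lower (median 0.81), and 11 rose with RA in sh-Control cells. The difference of RA effects passed for 3 of 13, Hoxa5 (3.45), Hoxd8 (1.44) and Hoxc5 (1.43), where 1.71% of all genes were called higher and 1.88% lower. Its median over the 13 genes was 1.86, and 0.98 with array 1 alone as the sh-Control RA group.

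**Figure D4:**
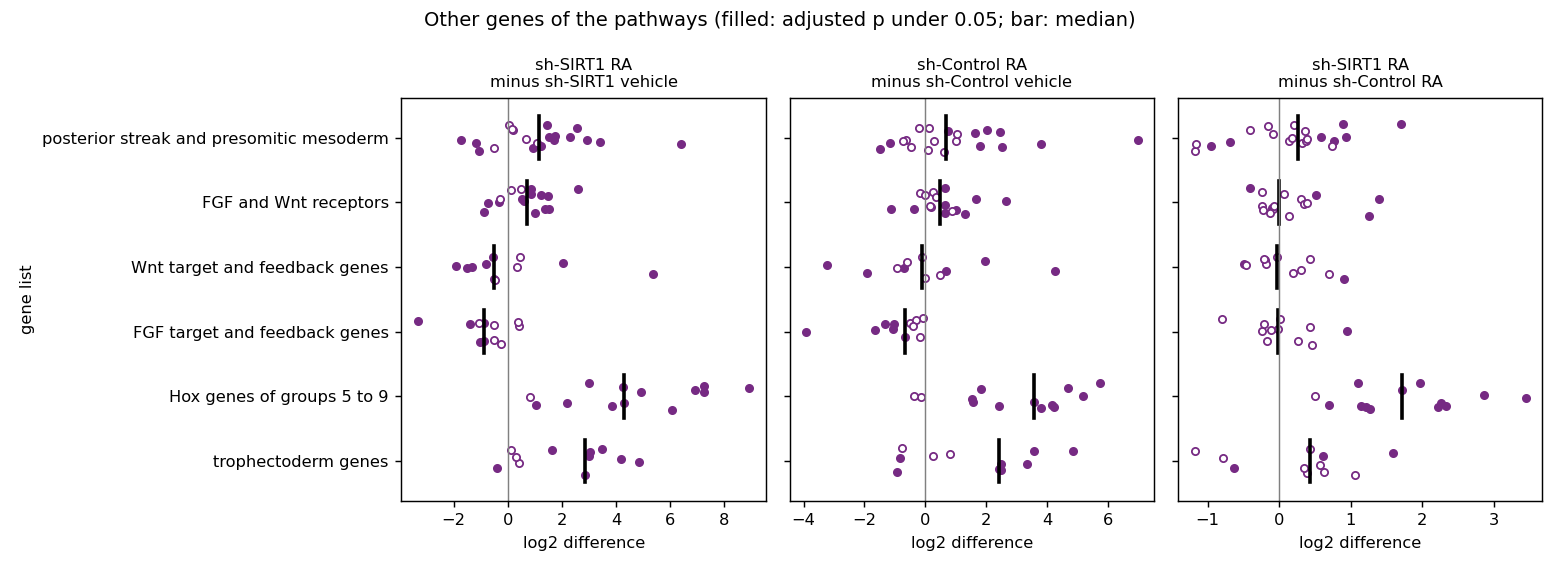
Difference (horizontal axis, log2) of each tested gene of 6 lists in 3 comparisons; points are genes, filled where the adjusted p was under 0.05, and the bar is the median of the list. The Hox genes have medians of 4.30, 3.58 and 1.72, the FGF targets -0.88, -0.68 and -0.02, and vertical scatter within a list carries no meaning; sh-SIRT1 RA and sh-Control RA arrays each enter 2 of the panels.

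Markers of other cell types moved beside the Cdx genes. Their counts stand beside 23% of all genes called higher and 35.3% lower in sh-SIRT1 cells under RA, and 19.7% and 27.2% in sh-Control cells. Of 11 tested trophectoderm genes, 7 rose and 1 fell in sh-SIRT1 cells under RA (median 2.84), against 6 and 2 in sh-Control cells (median 2.44), with Gata3, a trophectoderm factor, higher by 4.85 ± 0.38 in sh-SIRT1 cells and at least 15.7-fold in sh-Control cells. The mean level of these genes was 0.14 to 1.02 over sh-SIRT1 RA arrays and -0.30 to 0.64 over sh-Control RA arrays, against -2.12 to -1.38 in sh-SIRT1 vehicle and -1.67 to -1.23 in sh-Control vehicle. Of 12 primitive endoderm markers, 9 rose in sh-SIRT1 cells and 8 in sh-Control cells and none fell, and their mean level was -0.40 to 0.42 in sh-SIRT1 RA and -1.10 to 2.05 in sh-Control RA, against -3.27 to -3.08 in sh-SIRT1 vehicle and -2.69 to -2.62 in sh-Control vehicle. Stem cell markers stayed bright, with a mean level of 4.29 to 4.80 in sh-SIRT1 RA and 4.63 to 5.13 in sh-Control RA, against 5.03 to 5.12 in sh-SIRT1 vehicle and 5.11 to 5.30 in sh-Control vehicle; 6 of 10 fell and 1 rose in sh-SIRT1 cells, and 5 fell and 1 rose in sh-Control cells. Of 8 tested fibroblast markers, 6 rose in sh-SIRT1 cells and 5 in sh-Control cells, and of 6 neuroectoderm markers 3 rose and 2 fell in sh-SIRT1 cells, against 2 and 2 in sh-Control cells. The fibroblast list had a mean level of -0.61 to 0.46 in sh-SIRT1 RA and -1.90 to 0.44 in sh-Control RA, against -3.08 to -2.74 in sh-SIRT1 vehicle and -2.32 to -2.23 in sh-Control vehicle. Of the 12 primitive endoderm markers, 11 were well above background on every sh-SIRT1 RA array and 12 on every sh-Control RA array, against 9 in sh-SIRT1 vehicle and 10 in sh-Control vehicle. All 11 trophectoderm genes were so on every RA array, against 10 in sh-SIRT1 vehicle and 9 in sh-Control vehicle. All 8 fibroblast markers were so on every sh-SIRT1 RA array, against 6 in each other group. The filter could admit a gene through the group where it was high, so the counts of these lists may be partly set by it. With array 1 alone as the sh-Control RA group, 12 primitive endoderm markers rose in sh-Control cells, 7 trophectoderm genes rose and 1 fell, 6 fibroblast markers rose, 2 stem cell markers rose and 2 fell, and 1 neuroectoderm marker rose and 2 fell. Their part in the results for the Cdx genes, Wnt3a and Evx1 was not tested.

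Between the RA groups 8.59% of all genes were called higher in sh-SIRT1 cells and 11.7% lower. Beside the lower Wnt3a of sh-SIRT1 cells and their higher Cdx2, a call kept in 7 of 24 other analyses, 0 of 12 primitive endoderm markers passed in limma. None of the 12 had an unadjusted p under 0.05. The mean level of these markers was 2.05 on sh-Control RA array 1, against -0.11, -1.10 and -1.06 on arrays 2 to 4, and with array 1 alone as that group 9 of 12 were lower in sh-SIRT1 cells (median -2.14). Of the others, 2 trophectoderm genes were higher and 1 lower, 4 of 10 stem cell markers were lower (Tdgf1, a co-receptor, -1.06; Sox2 -0.95; Nanog -0.76; Zfp42 -0.47), 3 of 6 neuroectoderm markers were higher (Sox1 1.59, Zic1 1.52, Nes 1.25), and 1 fibroblast marker was higher (Twist2, 1.72) and 1 lower (Col5a1, -0.52). The neuroectoderm list had a mean level of -2.81 to -2.55 in sh-SIRT1 RA, against -3.81 to -2.88 in sh-Control RA. The fibroblast list stood at -0.61 to 0.46 in sh-SIRT1 RA, against -0.08, 0.44, -1.76 and -1.90 on sh-Control RA arrays 1 to 4, with arrays 3 and 4 lowest as for Cdx2. Its 8 markers were well above background on every sh-SIRT1 RA array, against 6 on every sh-Control RA array, so its counts may be partly set by the filter. In the fit with array 1 alone, 1 trophectoderm gene was higher and 1 lower, 4 stem cell markers were lower, 2 neuroectoderm markers were higher and 0 fibroblast markers passed in limma (2 lower at an unadjusted p under 0.05). Their part in those results was not tested. In vehicle the trophectoderm list had 1 gene higher in sh-SIRT1 cells and 2 lower, where 4.41% of all genes were called higher and 4.21% lower. Plet1 changed by -3.19 ± 0.41 (adjusted p = 0.000412, limma).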

How the data were processed

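RNA of 16 E14 cell samples was hybridised to one-colour Agilent whole mouse genome arrays. The deposited values were spot intensities, background-subtracted and processed by Feature Extraction 9.5, per the submitters' processing notes (9.5.3.1, per the file headers). From these, spots marked as outliers were set missing (87 to 131 per array), spots of one probe were averaged, and log2 levels were taken relative to the 75th percentile of each array (684 to 1155 intensity units). A probe was kept where some group had it well above background on each of its arrays (26375 of 41174 probes), and the brightest probe stood for a gene. RefSeq named 17567 probes through their accessions. limma 3.58.1 (R 4.3.3) fitted the group means over all 16 arrays, 12 residual degrees of freedom, with Benjamini-Hochberg adjustment over 18282 genes and a threshold of 0.05. The code was checked on simulated data.

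Below background on all arrays of a group, a fold is a lower bound: the bright group's mean against the dim group's mean of, per array, the higher of the probe's own signal and the dimmest signal well above background. Such a bound is one of means, so single arrays can stand below it, and it leaves out the spread between arrays. The members and gene lists were chosen with earlier results of these data known. From each list at most 4 genes per comparison were named, those with the largest differences among the called ones; which of them to describe, and the marker genes named, were picked with their values seen. Same-numbered sh-SIRT1 and sh-Control arrays deviated together within treatment (r 0.431 to 0.541 in 4 RA pairs and 0.363 to 0.513 in 3 vehicle pairs), so their numbers were taken to pair them. Same-numbered RA and vehicle arrays of one line had r of -0.211 to 0.219 (sh-SIRT1) and -0.068 to -0.029 (sh-Control). The replicate block over all groups joins these too, a pairing that these values do not show. For sh-Control RA arrays 1 and 2 the same number gave the highest r with a sh-SIRT1 RA array. Sh-Control RA array 3 had 0.460 with its own number, against 0.504 and 0.519 with sh-SIRT1 RA arrays 4 and 5. Sh-Control RA array 4 had 0.431, against 0.482 and 0.492 with sh-SIRT1 RA arrays 3 and 5. The pairing comes from the data, and for arrays 3 and 4 it is uncertain. The labels do not say what a number shares. Alternatives were other filters, scalings and background corrections, array weights, replicate and slide blocks, and leaving out arrays. The number of arrays limits the precision.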

Additional observations from a re-analysis of the deposited data

Results flagged for a closer look

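Among the 12 groups of member levels that could be tested for an outlying array (chance marks about 1 in 20), 1 stood out. T was at -4.52 on sh-Control RA array 1, above the other 3 arrays of that group, which lay between -5.11 and -5.07; its gap to the nearest was 0.921 of the range of the group. It is also the only sh-Control RA array with Ddx3y well above background, and the only one of that group on slide 4. The slide 4 arrays of other groups also stood high, at -4.48 (sh-Control vehicle array 3), -4.55 (sh-SIRT1 RA array 6) and -4.84 (sh-SIRT1 RA array 1). Every array on another slide was at -5.07 or lower. Without sh-Control RA array 1, the RA difference of T in sh-Control cells was 0.28 (adjusted p = 0.536, limma), and with all 4 arrays it was 0.42.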

How the results depend on the processing

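The RA differences of Cdx1 and Cdx2 in both lines and of Evx1 in sh-Control cells kept their direction and their call in every alternative that gave a value. The number of members called in sh-SIRT1 cells under RA was 4, against 2 without a filter, with the replicate block over all groups or with slide as a fixed block, 1 where only probes well above background on all 16 arrays were kept, and 5 with array weights. That filter leaves Cdx1 and Fgf8, and it gave 1 call in sh-Control cells under RA, where the reported count was 4 (3 with sh-Control RA array 1 alone, 5 with no filter), and 0 between the RA groups. In the RA groups 2 members were called, against 1 with no filter, only these groups in the fit, quantile normalization, median scaling, either replicate block, and slide as a fixed or random block, 0 with sh-Control RA array 1 alone, and 3 with array weights or normexp. For the difference of RA effects 0 became 3 with array weights and 1 with the replicate block within treatment, and in vehicle 0 became 4 with array weights. Leaving out single arrays gave 2 to 4 members called in sh-SIRT1 cells under RA, 4 to 5 in sh-Control cells, 1 to 3 between the RA groups, and 0 for the other comparisons. Uncalled differences changed sign as follows: Cdx1 in vehicle was -0.015 and, in sh-Control cells under RA, Fgf8 -0.064 and T -0.029, with the Fgf8 difference of RA effects 0.28, under array weights; with array 1 alone the difference of RA effects was -0.22 for Cdx2 and -0.079 for T, and Evx1 between the RA groups was -0.12 (-0.0081 with quantile normalization). Wnt3a in vehicle was 0.036 with normexp, 0.11 with quantile normalization and 0.048 with median scaling. Leaving out single arrays gave ranges across 0 for Cdx1 (-0.15 to 0.32) and Wnt3a (-0.20 to 0.023) in vehicle, Evx1 (-0.16 to 0.25) and T (-0.20 to 0.045) between the RA groups, and the difference of RA effects of Cdx2 (-0.063 to 0.90), Fgf8 (-0.47 to 0.046) and T (-0.10 to 0.71). The cause was not tested. Over all genes, the calls in vehicle were 1576, against 9548 with array weights, 3516 with the replicate block within treatment, 975 with the slide block (fixed) and 739 without sh-Control vehicle array 3. For the difference of RA effects they were 657, against 9749, 1656 and 92 in those first 3 settings, 169 with the replicate block over all groups, 285 with no filter, 199 with array 1 alone 204 without sh-Control vehicle array 3 and 1885 without sh-Control RA array 1. For sh-SIRT1 RA against sh-Control RA they were 3706, against 11042 with array weights and 2030 with array 1 alone, and in sh-Control cells under RA 8562, against 13323 with array weights. Median scaling moved the median of all genes to -0.38 in sh-SIRT1 and -0.26 in sh-Control cells under RA, and the share of calls that were higher to 25.5% (39.4% otherwise) and 31.6% (42.0%); it was 70.9% (51.1%) in vehicle and 31.5% (47.6%) for the difference of RA effects. Cdx4, the second Fgf8 probe and most T and Evx1 values are limited by signal close to background.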
